A study of Mus musculus with 12 samples.

Results

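Ino80 peaks that lay within 5000 bp of another peak, in stretches of the genome that were not densely occupied, numbered 1831 of the 12749 peaks listed for mouse embryonic stem cells, or 14.4% (95% Clopper-Pearson interval 13.8 to 15.0%). A peak was taken when it lay on an autosome, had an edge-to-edge distance under 5000 bp to the nearest peak, was 1200 to 9800 bp wide, and had its midpoint in a 1 Mb bin with fewer than 20 peaks. These are the positions, widths and crowding of the peaks themselves, so all values of distance, width and crowding below are descriptions and carry no test. The cells were J1, an embryonic stem cell line, switched to M15 medium for the experiment, and the label of this sample names no hairpin RNA or other treatment. Chromatin was fixed with formaldehyde, sheared by sonication and precipitated with an Ino80 antibody, and the sample's label names the Nextera XT kit for the library. The series has 12 samples in 12 groups of 1, and the list used here comes from the Ino80 sample, so no value has a replicate error. The other 11, among them the input and libraries of cells with lentiviral hairpins, either non-targeting or directed at Ino80, were not analysed here. A list of peaks measures no RNA, so the labelled cell type could not be checked against markers.

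Ino80 is the ATPase of a large remodelling complex that slides nucleosomes along DNA and has been linked to the placing of the histone variant H2A.Z. The complex is known to act at the first nucleosomes beside transcription start sites and at replication forks and DNA breaks. The series set out to find where Ino80 sits in mouse embryonic stem cells, whose self-renewal rests on a network of factors such as Oct4. A peak here is a stretch that the authors' caller listed as enriched in the Ino80 library, and whether every part of it was enriched is unknown here. The peaks were tied to no gene or sequence, because no gene annotation or sequence of their genome build, mm9, was used.

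The 1831 closely paired peaks made up 14.6% of the 12542 autosomal peaks (interval 14.0 to 15.2%) and 17.9% of the 10248 autosomal peaks outside dense bins (17.1 to 18.6%). They were chosen from 3000 autosomal peaks with a neighbour under 5000 bp away, of which 974 lay in dense bins. A further 168 were left out as wider than 9800 bp and 27 as narrower than 1200 bp. The members covered 8332 kb, or 15.1% of all sequence under peaks. Intervals given here cover counting error only, and neighbouring peaks are not independent, so they are too narrow by an unknown amount.

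The limits of the rule cut through continuous distributions. At the largest distance inside it, 4800 bp, there were 44 members, and at the next step of 5000 bp 56 peaks of the same widths and bins stood outside. The narrowest members, at 1200 bp, numbered 24, against 17 close peaks of 1000 bp left out. The widest, at 9800 bp, numbered 13, against 16 of 10000 bp left out. Bins with 19 peaks held 90 members, and bins with 20 peaks held 60 close peaks of the same widths.

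Within the limit of the rule, the most frequent distances were those nearest to 1000 bp, below which the list held none. The median distance to the nearest peak was 1800 bp, with quartiles at 1200 and 3000 bp. For 368 members, 20.1% (18.3 to 22.0%), it was 1000 bp, the smallest distance in the list, and for 1046, 57.1% (54.8 to 59.4%), it was at most 2000 bp. Among all 10166 pairs of successive autosomal peaks that both lay outside dense bins, none were under 1 kb apart and 567 were 1 to 2 kb apart. The number fell to 218 at 2 to 3 kb, 186 at 3 to 4 kb and 165 at 4 to 5 kb. Beyond the limit of the rule it was 178 at 5 to 6 kb and 144 at 6 to 7 kb. The steepest fall was thus from the class of 1 to 2 kb to that of 2 to 3 kb, with a slower decline beyond, through the limit of 5 kb. The mean number per step of 200 bp, the grid of the list, was 113 from 1000 to 1800 bp, 33.0 from 4000 to 4800 bp and 23.2 from 5000 bp to 20 kb. Step by step, the number went from 210 at 1000 bp to 136 at 1200 bp, 94 at 1400 bp, 76 at 1600 bp and 51 at 1800 bp. The settings with which the caller joined or kept apart neighbouring windows are unknown here. Their part in the short distances, and in the lack of any under 1000 bp, was not tested.

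**Figure D1:**
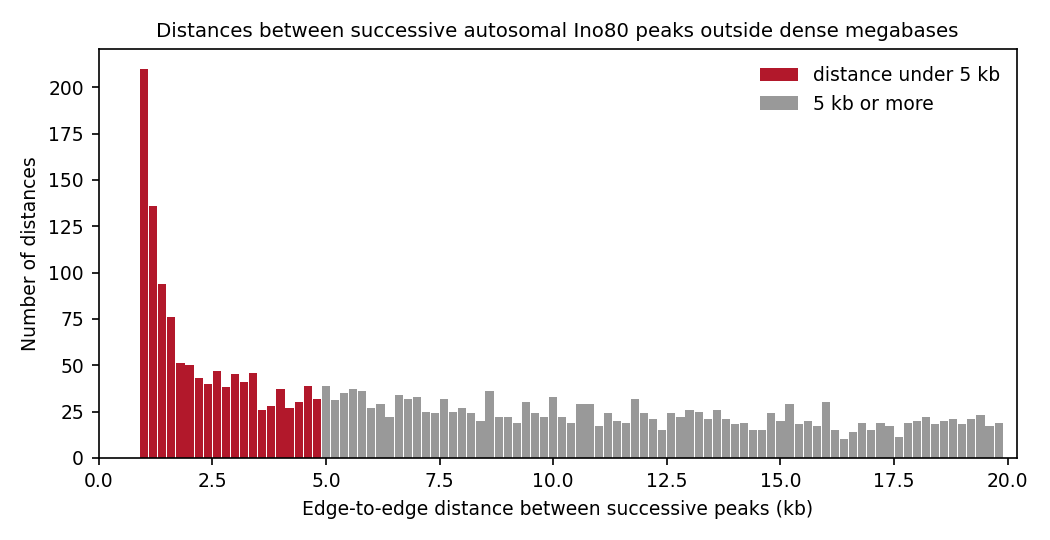
Number of edge-to-edge distances between successive autosomal Ino80 peaks (vertical axis) in steps of 200 bp against the distance in kb (horizontal axis, up to 20 kb), for peaks that both lie in 1 Mb bins with fewer than 20 peaks. Red bars are distances under 5 kb and grey bars longer ones; the count falls from 210 at 1000 bp to 51 at 1800 bp and then changes slowly.

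Close peaks in dense bins had nearly the same distances. Those 847 peaks, of the same widths and with the same distance limit but in bins of 20 or more peaks, had a median distance of 1800 bp, with quartiles at 1200 and 3200 bp. Their nearest peak was at most 2000 bp away in 57.4% (54.0 to 60.7%), against 57.1% of the members, and at 1000 bp in 19.5% (16.9 to 22.3%), against 20.1%. The widths were close as well, with a median of 4400 bp (binomial interval of the median 4000 to 4600 bp) against 4200 bp (4000 to 4400 bp) for the members. The spacing of close peaks thus had similar values on both sides of the limit on crowding, in 1 library and without a test.

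The members' widths had quartiles at 2800 and 6000 bp around the median of 4200 bp. Peaks from 4000 up to 6000 bp were 559 of the 1831, or 30.5%, and 138, or 7.54%, were narrower than 2000 bp. The 7731 peaks of the same width range and the same kind of bin with no neighbour under 5000 bp had a median of 3200 bp (3200 to 3400 bp), with quartiles at 2400 and 4600 bp. The distance between edges, which the rule used, depends on the widths, so this difference is given as a description, and how much of it the rule accounts for was not tested. The 221 members with a peak under 5000 bp on both sides, 12.1% of all (10.6 to 13.7%), had a median of 4600 bp, and those with one on a single side 4200 bp.

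Joined wherever the distance was under 5000 bp, the members fell into 882 groups, and most of these were simple pairs. Groups of 2 peaks numbered 693, or 78.6% (75.7 to 81.2%), followed by 140 groups of 3 and 39 of 4. Only 10 groups were larger, with 5 groups of 5 peaks, 3 of 6 and 2 of 7. In 590 of the 693 pairs both peaks were members, and these pairs held 1180 members, 64.4% of all (62.2 to 66.6%). In the other 103 pairs the partner was no member, because it was wider than 9800 bp in 80, narrower than 1200 bp in 20 and in a dense bin in 3. Groups of 3 or more peaks held the remaining 548 members. Of all members, 1665, or 90.9% (89.5 to 92.2%), had another member as a nearest peak. That nearest peak meets the distance limit by construction, and only its width or its bin could leave it out. The high share therefore follows largely from the rule.

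The span of the 590 pairs lay mostly under peaks, with a short gap. The median span from outer edge to outer edge was 11000 bp (quartiles 8600 and 13150 bp). The median gap was 2000 bp (1200 and 3200 bp) and the median summed width of the 2 peaks 8400 bp. Peaks covered a median of 81.0% of a pair's span, and between 42.9% and 94.4% over all pairs. Each median was taken separately, so together they do not describe a single pair. The gap was narrower than the narrower of the 2 peaks in 402 pairs, 68.1% (64.2 to 71.9%). It was at most 2000 bp in 314, 53.2% (49.1 to 57.3%), and exactly 1000 bp in 101, 17.1% (14.2 to 20.4%). The centres of the 2 peaks lay a median of 6700 bp apart. Although no member reached 10 kb, 368 pairs, 62.4% (58.3 to 66.3%), spanned at least 10 kb when taken as 1 region. That is a region as long as the shortest of the peaks that the width limit left out as too wide.

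**Figure D2:**
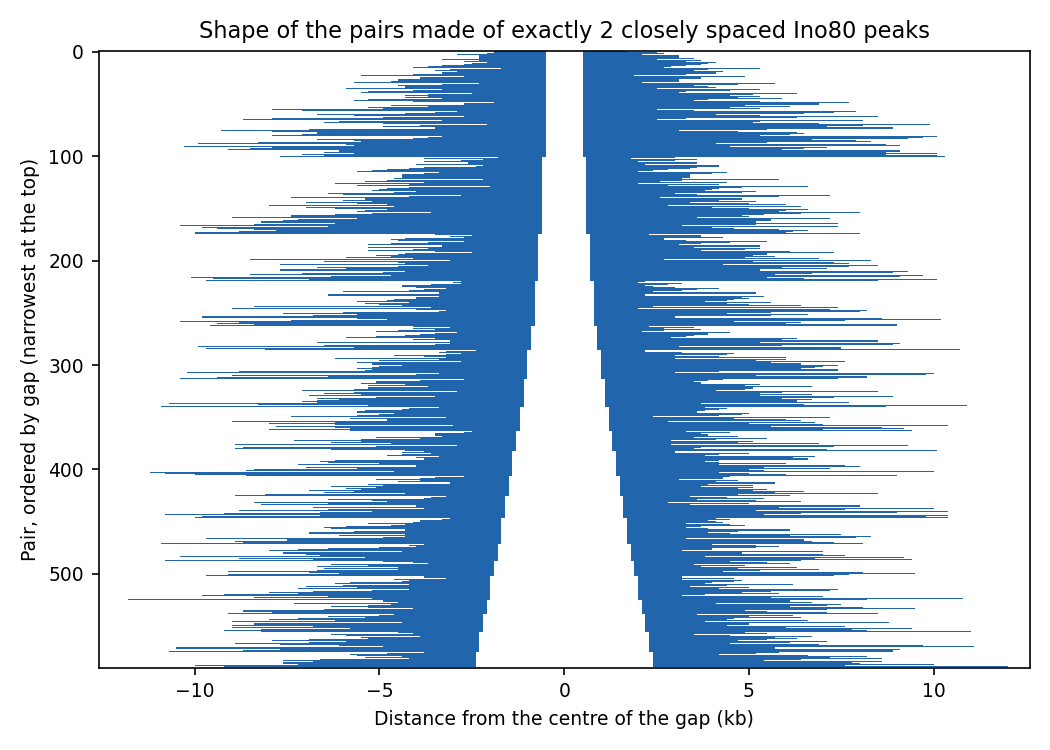
Each of the 590 pairs made of exactly 2 closely paired Ino80 peaks is 1 row, ordered by its gap and then by its summed width, with the peaks in blue and the horizontal axis giving the distance in kb from the centre of the gap. The white central band is the gap, which is 1000 bp in the top 101 rows and reaches 4800 bp at the bottom. Among rows with the same gap, the 2 blue bars together lengthen downwards, because of the ordering by summed width.

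The widths of the 2 peaks of a pair showed little relation to each other. The wider peak had a median of 5200 bp and the narrower one 3000 bp, and the median ratio of wider to narrower was 1.56 (quartiles 1.26 and 2.20). In 179 pairs, 30.3% (26.7 to 34.2%), the wider peak was at least 2 times as wide, and the largest ratio was 6.83. The peak with the lower coordinate was the wider one in 289 pairs, that with the higher coordinate in 283, and 18 pairs had equal widths. Across the 590 pairs, which share 1 library and 1 caller, the widths of the 2 peaks had a Pearson's r of 0.05 and a Spearman's rho of 0.05, given as a description. The width limits and the choice of close peaks restrict these values. Over all 926 successions of peaks of these widths outside dense bins that were under 5000 bp apart, those in longer groups included, rho was 0.07. Successive peaks farther apart, chosen in the same way, had similar values, with rho of 0.08 over 1500 successions at 5 to 20 kb and 0.09 over 2913 at 20 to 100 kb. The median difference in width was 1800 bp within the pairs (interval 1600 to 2000 bp) and over the 926 close successions (interval 1800 to 2000 bp). It was 1600 bp for the successions at 5 to 20 kb (interval 1600 to 1800 bp), and again 1600 bp for those at 20 to 100 kb (interval 1400 to 1600 bp). The median summed width of 2 successive peaks was 8800 bp over the close successions, 8000 bp at 5 to 20 kb and 7400 bp at 20 to 100 kb. The differences in width thus come from peaks of unlike size and were not scaled to it. By rho and by the difference in bp, closely paired peaks were not nearer to each other in width than more distant neighbours.

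**Figure D3:**
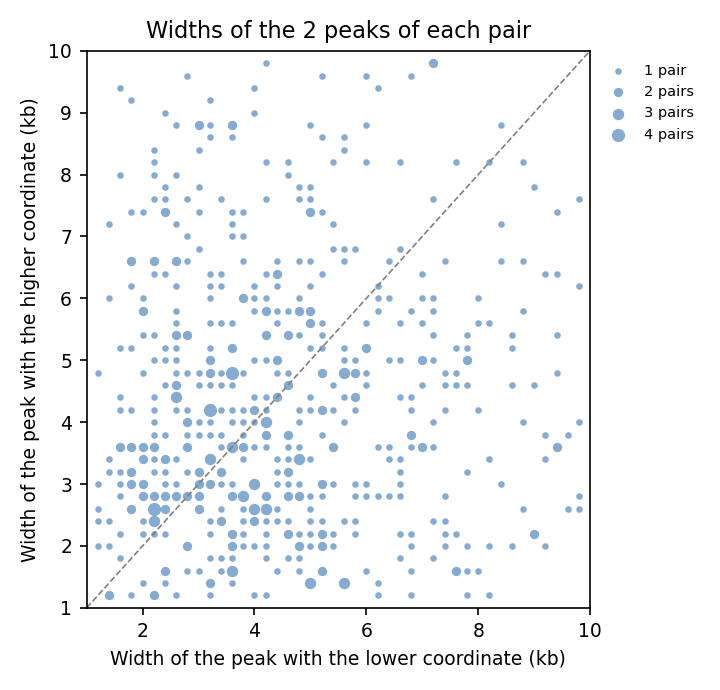
Width of the peak with the higher coordinate against that of the peak with the lower coordinate, both in kb, for the 590 pairs; the area of a point grows with the number of pairs at that position, and the dashed line marks equal widths. The points spread on both sides of the line, 289 below it and 283 above it, without following it.

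Within the limits of the rule, the length of the gap likewise showed little relation to the widths beside it. The summed width of the 2 peaks had a median of 8600 bp (8000 to 9400 bp) in the 286 pairs with a gap from 1000 to below 2000 bp. It was 9000 bp (8200 to 9600 bp) in the 121 pairs with a gap from 2000 to below 3000 bp, and 7900 bp (7000 to 8800 bp) in the 96 from 3000 to below 4000 bp. In the 87 pairs with a wider gap it was 8400 bp (7800 to 9000 bp), and all 4 intervals overlap. Spearman's rho of gap and summed width was -0.06 over the 590 pairs, again as a description. The rule limits both the gap and the widths, which restricts this value. Among successive peaks farther apart than 5 kb, the median summed width was lower, as given above. In the 98 groups of exactly 3 members, the middle peak was the widest in 33, the lower one in 32 and the higher one in 30, and 3 groups had a tie. Their median widths were 4400 bp for the middle peak, 4400 bp for the lower and 4100 bp for the higher one.

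The largest groups showed how long such runs became. A run of 7 peaks on chromosome 4, from 106498001 to 106544000 in mm9, consisted of members only and spanned 46.0 kb. Its peaks were 2200 to 9400 bp wide and its gaps 1000 to 4800 bp, and 66.1% of it lay under peaks. Another run of 7, on chromosome 1 from 88353401 to 88426400, spanned 73.0 kb with 79.5% under peaks. It held 4 members of 2000, 4400, 8800 and 5400 bp and 3 peaks of 10000 bp or more, so the close members there were the smaller peaks of a longer run. On chromosome 14, the 6 peaks from 99696201 to 99756000 had the same make-up, with 4 members and 2 wider peaks over 59.8 kb. On chromosome 17, 6 members from 34027201 to 34079600 spanned 52.4 kb, 80.9% of it under peaks of 4200 to 9200 bp. The 6 members on chromosome 2 from 17945201 to 17987400 were the most even of these runs, with widths of 6000, 4200, 4600, 4200, 4400 and 6000 bp over 42.2 kb. The next peak to that run was 31.2 kb away.

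The 5 pairs with the largest summed width had peaks of 7200 to 9800 bp on both sides of the gap, 9800 bp being the upper limit of the rule. On chromosome 2, from 160330401 to 160350000, peaks of 9800 and 7600 bp were separated by 2200 bp, and the next peak lay 120.2 kb away. On chromosome 10, from 128129201 to 128149600, peaks of 8400 and 8800 bp had a gap of 3200 bp. A second pair on chromosome 2, from 174107801 to 174126400, had peaks of 8800 and 8200 bp and a gap of 1600 bp. On chromosome 5, from 138068401 to 138086400, peaks of 7200 and 9800 bp stood 1000 bp apart, so that 94.4% of the span was covered, the highest share of all 590 pairs. The same widths occurred on chromosome 8 with a gap of 1800 bp, from 123143601 to 123162400. Over the 19 autosomes, the pair of largest summed width on each held between 12.8 kb under peaks on chromosome 4 (43976601 to 43990400) and 17.4 kb on chromosome 2. The partners were unequal in several of these, such as the pair on chromosome 14 (76810601 to 76826800), with peaks of 9200 and 3800 bp.

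In each of the 5 smallest pairs as named here, the fifth taken from a tie, 1 peak was at the lower limit of 1200 bp. The other was at most 2200 bp wide. On chromosome 1, from 155221201 to 155224800, peaks of 1400 and 1200 bp stood 1000 bp apart and spanned 3600 bp, the shortest pair of all. The same widths on chromosome 5, from 110655801 to 110660400, had a gap of 2000 bp. On chromosome 6, from 84003401 to 84010400, peaks of 1800 and 1200 bp flanked a gap of 4000 bp, which left 42.9% of the span covered, the lowest share of the 590 pairs. Those were the only peaks of their 1 Mb bin. A pair on chromosome 7, from 88281801 to 88287600, had 1200 and 2000 bp with a gap of 2600 bp. On chromosome 1, from 9534001 to 9539000, the widths were 2200 and 1200 bp and the gap 1600 bp. That pair shares its place among the 5 smallest with others, since 9 pairs had a summed width of at most 3400 bp. Not all of the tied pairs held a peak of 1200 bp. Widths of 1400 and 2000 bp occurred with a gap of 1000 bp and, in the reverse order, with a gap of 1600 bp. Widths of 1600 and 1800 bp occurred with a gap of 3200 bp. That the named pairs all hold a peak of 1200 bp thus depends on which tied pair was taken.

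Beyond the pair itself, the next peak was farther off than the partner in every pair, as the joining into groups requires. From the outer edges of a pair, the nearest further peak was a median of 20.1 kb away (18.0 to 22.0 kb), with quartiles at 11.0 and 49.4 kb, and by construction at least 5 kb. It was at least 100 kb away for 62 pairs, 10.5% (8.15 to 13.3%), and at least 500 kb for 4 pairs. The 7731 single peaks described above had a median distance of 39000 bp to their nearest peak, with quartiles at 16000 and 105000 bp. The pairs and the single peaks were not matched for crowding, and the share of members was higher in bins with more peaks.

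Members were found in 582 of the 1890 autosomal 1 Mb bins that held at least 1 and fewer than 20 peaks, 30.8% (28.7 to 32.9%). The bin of the median member held 11 peaks, with quartiles at 8 and 14. Of the peaks in bins with 2 to 4 peaks, 101 of 1838 were members, 5.50% (4.50 to 6.64%). The share was 16.3% (15.1 to 17.5%) at 5 to 9 peaks per bin, 24.9% (23.4 to 26.6%) at 10 to 14 and 26.8% (24.7 to 29.0%) at 15 to 19. A bin with more peaks has shorter distances by construction, so this order describes where the members lie and supports nothing. In 7 of the 253 bins with exactly 2 peaks both peaks were members.

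Every autosome carried members, from 52 on chromosome 16 to 177 on chromosome 2. As a share of its peaks outside dense bins, chromosome 11 had the most, with 158 of 692 or 22.8% (19.8 to 26.1%), followed by chromosome 15 with 91 of 437 or 20.8% (17.1 to 24.9%). Chromosomes 16 and 18 had the least, each at 13.8% (10.5 to 17.7%), with 52 of 377 and 53 of 383 peaks. Chromosome 12 stood at 14.0% (11.0 to 17.6%) and chromosome 7 at 14.8% (12.0 to 17.8%). The interval of 14 of the 19 autosomes held the value of all autosomes, 17.9%. Neighbours in this order had overlapping intervals, but that of chromosome 11, picked as the highest, lay above those of chromosomes 3 (12.7 to 19.3%), 7, 12, 16 and 18. The autosomes were not matched for the number of peaks per bin, with which the share of members rose. The part of crowding in this order was not tested. The members' median width was between 3600 bp on chromosome 18 and 4700 bp on chromosome 16, and their median distance between 1200 bp on chromosome 19 and 2500 bp on chromosome 16.

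**Figure D4:**
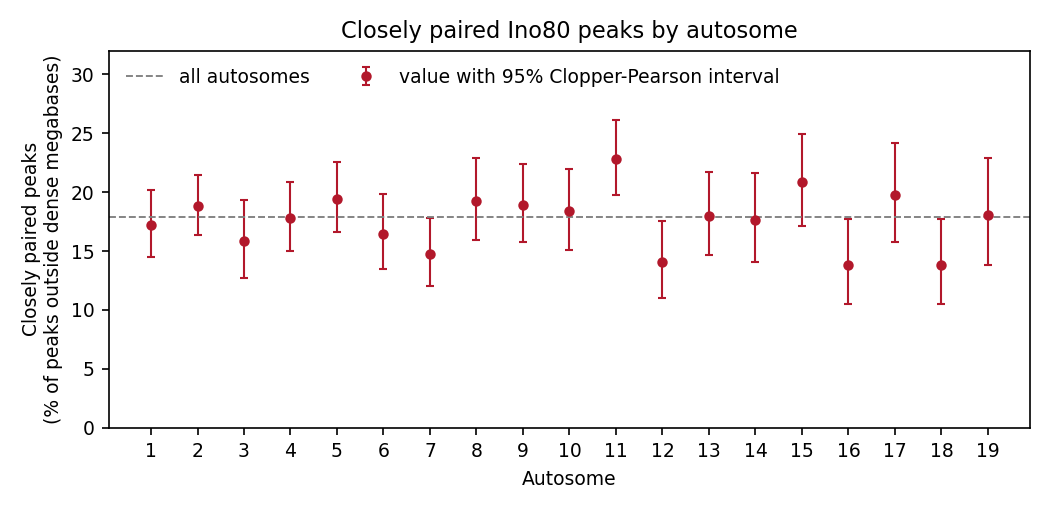
Closely paired Ino80 peaks as a percentage of the peaks outside dense megabases (vertical axis) on each of the 19 autosomes (horizontal axis). Points are the values of 1 library, bars their 95% Clopper-Pearson intervals for counting error, and the dashed line is the value of all autosomes, 17.9%; the points lie between 13.8% and 22.8%.

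Chromosome X was outside the rule. Of its 207 peaks, 25 met the limits on distance, width and crowding, 12.1% (7.97 to 17.3%), an interval that overlaps at its upper end with that of the autosomal peaks outside dense bins. No bin of X held more than 17 peaks, so none was dense. Peaks of X and of the autosomes were not matched for the number of peaks per bin, with which the share of members rose on the autosomes.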

How the data were processed

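Ino80 chromatin immunoprecipitation sequencing of J1 cells gave the 1 list used here, assigned to the Ino80 sample by the title in its name. As deposited by the authors, it gives each peak's name and position and the same strand sign throughout, with no count, score or p-value, so the depth behind a peak is unknown. Per the submitters' processing notes, the tools were Bowtie 0.12.8, bedtools, SICER 1.1 and CASAVA 1.7, and the builds hg19 and mm9, with no role stated for any. Which tool called this list, and with which settings, is not given in the sources used here, and both bear on every width and distance. SICER, if it was the caller, joins enriched windows into islands. Positions lie on a 200 bp grid, read as counted from 0 with inclusive ends, and 1 bp was added to both ends for printing. The mouse build mm9 was assumed.

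Distances are end to start on the same chromosome. Peaks less than 5000 bp apart were joined into groups, and bins of 1 Mb were counted from 0. Shares have 95% Clopper-Pearson intervals, and medians exact binomial intervals, both at the same level. Python 3.11.15, pandas 2.3.3, NumPy 2.4.6, SciPy 1.17.1 and matplotlib 3.10.9 were used. The search for pairs was tested on 1 simulated list with planted pairs. All peaks of that list met the width limits, and outside dense bins it held no group longer than a pair, so those cases were not tested. The regions named are the 5 largest groups, the 5 pairs of largest and of smallest summed width, the largest pair of each autosome, and the values at the limits of the rule. The members and these choices were made with earlier results of these data known. The 4 planned analyses of gene features, base composition, motifs and gene lists need an mm9 annotation or sequence and were not run. Distance, width and crowding limits and the position of the bins were varied.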

Additional observations from a re-analysis of the deposited data

How the results depend on the processing

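The number of members followed the limits of the rule, as it must. It was 1184 with a distance limit of 2500 bp, 2862 with 10000 bp and 673 with fewer than 10 peaks per bin, against 1831. With 2500 and 10000 bp, by construction, the median distance was 1200 and 3200 bp, the share of groups made of 2 peaks 86.3% and 71.9%, and the share of pairs with a gap of at most 2000 bp 86.7% and 31.0%. With fewer than 10 peaks per bin, 83.6% of groups were made of 2 peaks. Without a limit on width, 99.7% of members had another member as a nearest peak. With no limit on crowding, bins shifted by 0.5 Mb or no limit on width, the number was 2678, 1742 and 2026. The median width stayed between 4000 and 4400 bp and the median difference in width within a pair between 1600 and 2000 bp under all 6 alternatives. The alternatives for gene features, composition and motifs were not run, for lack of an mm9 genome. With no score per peak, a stricter call could not be tried. No paired analysis was possible because no group has a second sample.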

Other observations

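The 1 Mb bins with the most members, chosen after their values were seen, were at 125 to 126 Mb of chromosome 6 and 68 to 69 Mb of chromosome 11, each with 12 members, of 19 and 18 peaks. At 61 to 62 Mb of chromosome 15, 9 of 10 peaks were members, and at 17 to 18 Mb of chromosome 2, which holds the even run of 6, it was 10 of 14. Over all autosomal bins, members were 26.8% of the peaks in bins with 15 to 19 peaks and 24.9% in bins with 10 to 14. These bins were picked for their number of members, so the values are a description. The pair farthest from any other peak, also chosen after its values were seen, lay on chromosome 4 from 91035401 to 91044000. Its peaks of 4000 and 2400 bp flanked a gap of 2200 bp, and the nearest further peak was 2.67 Mb away.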
